A study of Mus musculus with 4 samples.

Results

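The genes described here are 38 glycolytic enzymes, glucose and lactate carriers, oxygen-sensing proteins and hypoxia-inducible genes of the mouse, read from bulk RNA libraries of the myoblast line C2C12. They were taken by gene symbol from a list of these functions, and all 38 were found among the 51826 gene identifiers of the count table. A filter on low counts kept 36 of them, and 15467 genes in all, for testing. Cells received GDF10, given as recombinant protein and belonging to the TGF-beta superfamily of secreted factors, for 6 h, or vehicle for 6 h. All cultures stayed in growth medium, the labels name no genetic change, and the dose of GDF10 is not given in the sources used here. Each group holds 2 libraries, described as biological replicates. Values below are given for replicate 1 and then replicate 2 of a group.

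Glycolysis splits glucose into pyruvate and yields ATP without oxygen, and lactate dehydrogenase turns pyruvate into lactate so that the pathway can keep running. Dividing cells use it heavily, and mature muscle uses it for fast contraction. When oxygen is low, the prolyl hydroxylases of the EGLN family stop marking the alpha subunits of the hypoxia-inducible factor HIF for destruction, and HIF then raises the transcription of many glycolytic genes and of genes for blood vessel growth, mitophagy and collagen hydroxylation. HIF activity is set mostly at the protein level, which RNA counts do not measure.

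Library totals were 29944193 and 35057429 counts with GDF10 and 35597310 and 29641165 with vehicle, so that a count of 3 corresponds to 0.0843 to 0.101 CPM, the usual unit of counts scaled to library size. Of 8 myoblast genes, which summed to 2198 and 2213 CPM with GDF10 and 2146 and 2142 CPM with vehicle, Des, a muscle intermediate filament, stood at 1042 and 1032 CPM with GDF10 and at 996 and 1005 CPM with vehicle, and Myod1 lay between 53.6 and 57.5 CPM in the 4 libraries. The labels call the cells muscle stem cells, yet Pax7, the defining marker of quiescent muscle stem cells, had 0 counts in all 4 libraries. One protocol label names longissimus dorsi, a back muscle, while the other labels name C2C12. The sum of 9 genes of differentiating myotubes was 225 and 230 CPM with GDF10 and 181 and 206 CPM with vehicle. Acta1 made up most of it, at 144 and 149 CPM with GDF10 and 114 and 129 CPM with vehicle, while Myh8 had 0 counts in all 4. Of the 8 genes tested, 6 were higher and 2 lower with GDF10, and 0 passed the test described below. Both GDF10 libraries lay above both vehicle libraries for 4 and below both for 0, against 18.8% and 19.4% of all genes. The part of this sum in the results below was not tested. The summed level of 7 mature fibre genes was 80.4 and 78.5 CPM with GDF10 and 68.8 and 74.2 CPM with vehicle, nearly all of it from Actn3, and Myh4, the fast myosin of fibres, had 0 counts in 3 libraries and 4 in vehicle replicate 1. Of 6 fibroblast genes, which summed to 4101 and 4454 CPM with GDF10 and 3846 and 4193 CPM with vehicle, Col1a1 and Col3a1 made up most. Pdgfra stood at 58.7 and 63.0 CPM with GDF10 and at 61.0 and 61.8 CPM with vehicle. For Dcn the values were 30.8 and 30.6 CPM with GDF10 and 26.3 and 40.3 CPM with vehicle, while Lum and Thy1 had 0 to 2 counts. None of 7 blood and immune genes exceeded 6.11 CPM in a library, and Hbb-bs and Hbb-bt had 0 counts in all 4. The sum of 6 endothelial and epithelial genes was 6.34 and 6.89 CPM with GDF10 and 4.03 and 5.17 CPM with vehicle, with Epcam at 0 counts in all 4.

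Sequences of Gapdh copies and of promoters bear on the measurements and are shown first. The coding sequence of Gapdh, the glyceraldehyde phosphate dehydrogenase gene, occurs almost letter for letter in processed pseudogenes, so reads from it can be assigned to several places. The stretch below runs from position 301 to 390 of the Gapdh reading frame, counted from 1 at its first base, and the capital marks the position at which the most highly counted copy differs.
Gapdh: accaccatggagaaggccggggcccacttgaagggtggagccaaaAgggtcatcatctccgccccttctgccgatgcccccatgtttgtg
Gm13394: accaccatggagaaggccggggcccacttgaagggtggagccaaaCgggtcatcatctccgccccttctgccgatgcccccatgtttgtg
Gm12671: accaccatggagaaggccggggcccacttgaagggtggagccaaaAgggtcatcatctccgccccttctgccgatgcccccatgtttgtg
Gapdh lies on mm10 chromosome 6 from 125161715 to 125166467, on the minus strand. Gm13394, on chromosome 2 from 28933610 to 28934609 on the minus strand, was compared over 1000 of the 1002 coding bases and had a single difference, A346C, which gives the Gapdh base first. Gm12671, on chromosome 4 from 91851668 to 91852669 on the minus strand, had 0 differences over all 1002.

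The promoters were searched for the core of the hypoxia response element, the letters through which HIF binds DNA. It was searched as ACGTG and as GCGTG on both strands, which read CACGT and CACGC when they lie on the opposite strand, and a CACGTG holds the first core on both strands and counts as 2. The windows, taken from RefSeq on GRCm38.p6, hold 300 bases around each gene's start, most of them before it. Of the 38 genes, 33 had a window, and Bnip3l, Ndrg1, Epas1, Slc2a3 and Slc2a4 had none. The first core was found in 23 of the 33 genes, or 69.7%, against 21.8% of the 27025 genes of the whole promoter table, and either core in 29 of the 33, or 87.9%, against 46.7%. Base composition was not matched between these promoters and the rest. The list also holds genes chosen because hypoxia induces them, so the shares are not a test of enrichment. The 4 windows below show the range among genes that the results turn on, with the cores in capitals: the Ldha window has 7 matches, that of Bnip3 5, that of Car9 1 and that of Gpi1 0. Ldha has another window in the table, from 46846832 to 46847131 on chromosome 7, with 2 matches, both GCGTG, and the richer one is printed. A gene counted as holding a core where any of its windows did. The 33 genes had 45 windows and the 27025 genes 32851, so the listed genes had more windows per gene to match.
Ldha: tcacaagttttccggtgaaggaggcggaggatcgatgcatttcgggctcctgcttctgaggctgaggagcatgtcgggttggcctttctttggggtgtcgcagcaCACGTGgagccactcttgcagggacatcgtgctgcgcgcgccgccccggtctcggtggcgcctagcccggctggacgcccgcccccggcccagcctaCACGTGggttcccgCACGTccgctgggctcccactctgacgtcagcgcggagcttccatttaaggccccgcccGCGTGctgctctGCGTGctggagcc
Bnip3: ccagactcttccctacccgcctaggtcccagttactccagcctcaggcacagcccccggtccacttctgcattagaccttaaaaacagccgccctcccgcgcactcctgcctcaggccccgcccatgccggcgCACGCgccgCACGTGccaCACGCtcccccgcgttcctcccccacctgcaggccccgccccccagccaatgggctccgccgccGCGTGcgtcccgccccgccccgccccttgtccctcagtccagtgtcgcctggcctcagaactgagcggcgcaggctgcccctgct
Car9: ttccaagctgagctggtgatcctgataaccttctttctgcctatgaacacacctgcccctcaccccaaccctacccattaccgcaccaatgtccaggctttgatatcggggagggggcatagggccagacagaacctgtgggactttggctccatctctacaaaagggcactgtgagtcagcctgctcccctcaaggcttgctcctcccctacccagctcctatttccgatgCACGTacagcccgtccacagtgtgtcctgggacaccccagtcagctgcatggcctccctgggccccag
Gpi1: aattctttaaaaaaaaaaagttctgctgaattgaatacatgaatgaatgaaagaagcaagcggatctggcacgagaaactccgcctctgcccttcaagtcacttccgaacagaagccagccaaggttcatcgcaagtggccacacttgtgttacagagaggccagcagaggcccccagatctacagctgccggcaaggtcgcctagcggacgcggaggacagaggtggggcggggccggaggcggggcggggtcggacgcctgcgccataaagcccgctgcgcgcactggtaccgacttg
These windows are chr7:46845554-46845853 on the plus strand, chr7:138909457-138909756 on the minus strand, chr4:43506776-43507075 on the plus strand and chr7:34230287-34230586 on the minus strand, each printed 5′ to 3′ along its gene. A match describes the letters of the window and is not evidence of binding.

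The comparison asked how these genes stood after 6 h with GDF10. None of them passed the test in either direction. Of the 36 tested with edgeR's quasi-likelihood test at a Benjamini-Hochberg adjusted p of 0.05 over all genes, 0 were called, against 0.162% of all 15467 genes, with 0.084% of them higher and 0.0776% lower with GDF10, and DESeq2 and limma-voom also called 0. The smallest adjusted p among them was 0.791. An unadjusted p under 0.05 was reached by 1 gene, Car9, which was lower, against 3.49% of all genes in that direction and 5.94% in either. Of the 36, 13 had a positive and 23 a negative log2 fold change of GDF10 over vehicle, beside 50.8% positive among all genes. Their median was −0.05, beside 0.00293 over all genes, and their median standard error was 0.12. The GDF10 libraries lay above both vehicle libraries for 2 of them, Ldhb and Epas1, where 18.8% of all genes did so, and below both for 5, Aldoc, Hif1a, P4ha1, Car9 and Kdm3a, where 19.4% did. Together these 7 stand beside 38.2% of all genes. Epas1, counted here as positive and as higher, passed the filter on low counts only through its GDF10 libraries. Its direction was thus partly set by the filter. In bulk RNA, fewer cells with a transcript and less transcript per cell cannot be told apart.

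**Figure D1:**
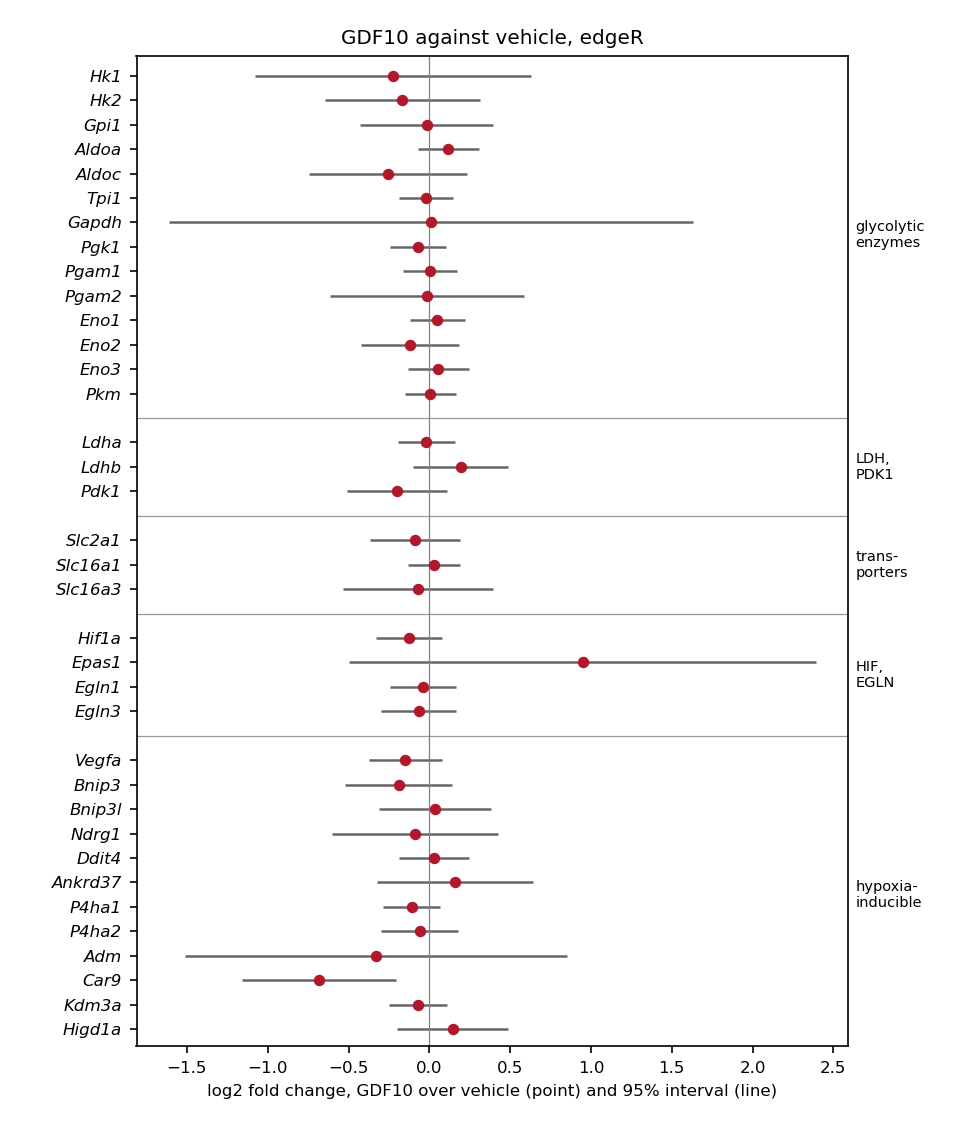
Log2 fold change of GDF10 over vehicle (horizontal axis) for the 36 tested genes, grouped by role from top to bottom, with points for edgeR estimates and lines for their 95% intervals (2 libraries per group). The interval of Car9, from −1.16 to −0.21, is the only one that leaves out 0, and that of Gapdh, from −1.61 to 1.63, is the widest.

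The glycolytic enzymes were among the abundant transcripts of these cells. On the RPKM scale, which is CPM per kilobase of exon, averaged over the 4 libraries, Pkm, pyruvate kinase, and Pgk1, phosphoglycerate kinase, stood at 638 and 637. Pgam1, a phosphoglycerate mutase, followed at 499.6 RPKM, Ldha at 389.8, Eno1, an enolase, at 366, Aldoa, an aldolase, at 347.5 and Tpi1, triosephosphate isomerase, at 273. Pkm and Pgk1 overlapped in their ranges over libraries, 625 to 649 and 618 to 681 RPKM, as did Ldha, Eno1 and Aldoa, while Pgam1 and Tpi1 did not overlap with their neighbours in this order. Eno3, another enolase, and Gapdh came next at 189 and 180 RPKM. Gpi1, glucose phosphate isomerase, was lower at 101.5 RPKM. The hexokinases, which admit glucose to the pathway, were lower again, with Hk1 at 31.5 and Hk2 at 24.5 RPKM. At the low end, Slc2a3, Slc2a4 and Epas1 were below 0.1 RPKM. Merged exon lengths were used, so a gene with long rare isoforms is understated on this scale. Counts of near copies, given below and large for Gapdh and Eno1, were not added, so the places of these genes in the order are uncertain.

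**Figure D2:**
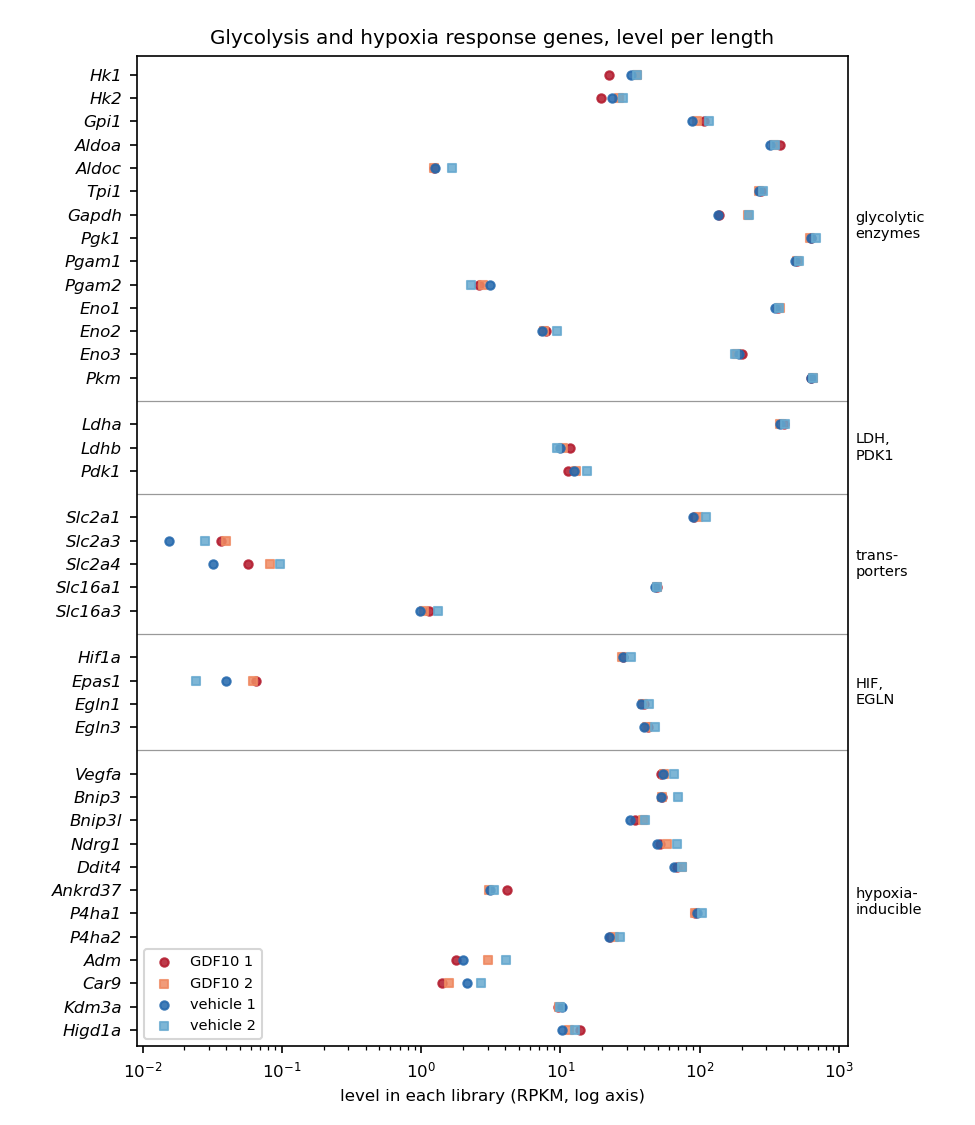
Level of all 38 genes in each library (RPKM, log axis), grouped by role, with red and orange for GDF10 and blue shades for vehicle libraries. Most genes sit within a narrow band across the 4 libraries, from a mean of 0.03 RPKM for Slc2a3 to 638 RPKM for Pkm.

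Most enzymes of the lower pathway differed little between the groups. Pkm, which makes pyruvate, had 3156 and 3236 CPM with GDF10, against 3124 and 3246 CPM with vehicle, and its highest library exceeded its lowest by a factor of 1.04. The 4 values interleave. Pgk1 had 1407 and 1386 CPM with GDF10 against 1399 and 1529 CPM with vehicle, so that vehicle replicate 2 stood above the other 3. Pgam1 had 994 and 987 CPM with GDF10, inside the vehicle values of 951 and 1029. Their log2 fold changes were 0.0048 for Pkm, −0.07 for Pgk1 and 0.0018 for Pgam1, with 95% intervals of −0.15 to 0.16, −0.24 to 0.10 and −0.17 to 0.17. Pkm shares 767 exon bases with the gene model Gm49759 on its own strand, which held up to 5690 counts in a library, so some of its reads may have been counted there.

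Of the entry steps, Hk1, Hk2, Gpi1 and Aldoa varied more between libraries than Pkm, Pgk1 and Pgam1. Hk1 had 191 and 305 CPM with GDF10, against 276 and 305 CPM with vehicle, so that GDF10 replicate 1 was the lowest of the 4 (log2 fold change −0.23, standard error 0.28). Its log2 fold change was −0.60 without GDF10 replicate 2 and 0.07 without GDF10 replicate 1. Each of these fits rests on a single GDF10 library. Hk2, the inducible hexokinase of muscle, was also lowest in GDF10 replicate 1, with 117 and 158 CPM with GDF10 against 141 and 168 CPM with vehicle. Gpi1 had 689 and 614 CPM with GDF10, inside the vehicle values of 564 and 753 CPM. Aldoa had 1104 and 1001 CPM with GDF10 against 933 and 1008 CPM with vehicle, and was not called (log2 fold change 0.12, standard error 0.08, edgeR adjusted p = 0.845). Tpi1 had 760 and 731 CPM with GDF10 and 732 and 782 CPM with vehicle, a ratio of 1.07 from highest to lowest.

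Gapdh, the next enzyme of the pathway, varied more between replicates than between groups. It had 572 and 921 CPM with GDF10, against 555 and 930 CPM with vehicle. Both libraries numbered 2 were high and both numbered 1 were low, by a factor of 1.68 from highest to lowest, while the group means of 747 ± 247 CPM with GDF10 and 743 ± 266 CPM with vehicle (mean ± SD, n = 2 each) were alike. The log2 fold change was 0.0084 (standard error 0.45), and it ran between −0.37 without GDF10 replicate 2 and 0.43 without vehicle replicate 2. Gapdh shares 68 exon bases with Iffo1, which held up to 913 counts in a library. Gapdh is widely used as a reference transcript in myoblast assays.

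Genes that resemble Gapdh held more counts together than Gapdh itself. Among the counted genes 174 others had at least 90% identity over at least 300 bases with the Gapdh transcript. Of these, 165 were pseudogenes, all of them processed except Gm45725. Together they held 91022 and 103175 counts with GDF10 and 103509 and 88761 with vehicle. In CPM the copies stood at 3037 and 2960 with GDF10 and 2897 and 2999 with vehicle, with a highest to lowest ratio of 1.05. Gapdh itself thus held 15.9% and 23.7% of the summed counts with GDF10 and 16.1% and 23.7% with vehicle. Gm13394 alone, which differs by the single base shown above, had 1258 and 1247 CPM with GDF10 and 1209 and 1272 CPM with vehicle, more than Gapdh in every library. With copies added to the gene, an alternative chosen after seeing the data, the sum was 3609 and 3881 CPM with GDF10 and 3452 and 3929 CPM with vehicle, a ratio of 1.14 from highest to lowest, and it was not called (log2 fold change 0.02, edgeR adjusted p = 0.975). How reads that match several places were counted is not given in the sources used here, so the sum may count a read more than once, and some of these genes, such as Peli2 at 90.8% identity, may hold reads of their own. The level of Gapdh by itself is therefore uncertain.

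Eno1 also had copies with many counts. It had 1970 and 2034 CPM with GDF10 and 1863 and 2008 CPM with vehicle, and 3 copies held a further 1721 and 1670 CPM with GDF10 and 1566 and 1663 CPM with vehicle. Eno1 thus held 53.4% and 54.9% of the summed counts with GDF10 and 54.3% and 54.7% with vehicle. Among the copies, Eno1b, a protein-coding gene with 99.5% identity, held 887 and 843 CPM with GDF10 and 795 and 822 CPM with vehicle, and Gm4735, a processed pseudogene on chromosome 2 from 80837141 to 80838442, held 808 and 800 CPM with GDF10 and 749 and 816 CPM with vehicle. Copies of Pgam1, mainly Pgam1-ps2, held 6.27% to 6.53% of its own count, and those of Bnip3l and Pgk1 1.85% to 2.6%. For Aldoa, Bnip3, Gpi1, Ldha, Ldhb, Pkm and Tpi1 the copies held at most 0.506% of the gene's count, and no copy by this definition was found for the other 26 genes.

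**Figure D3:**
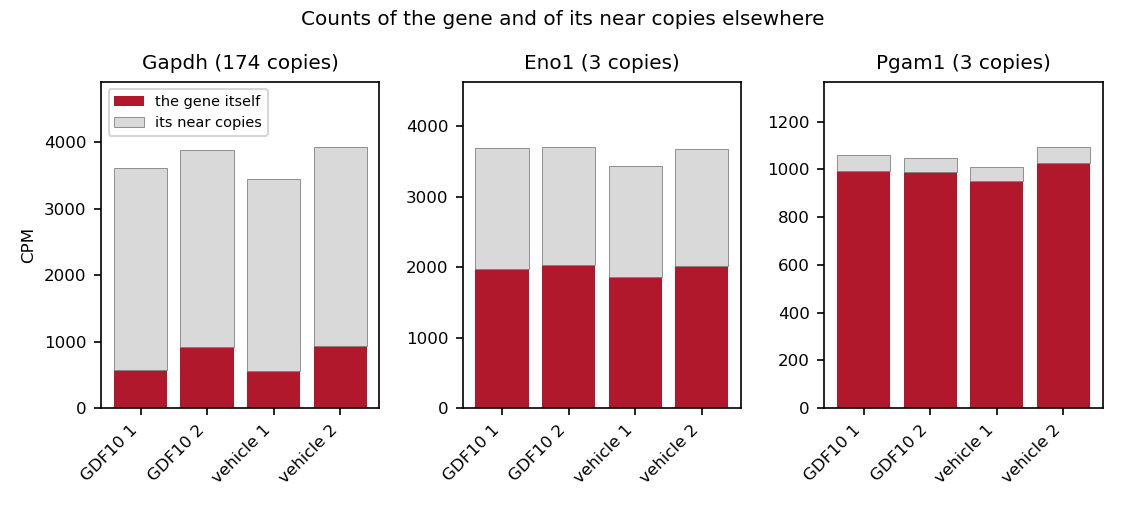
CPM of Gapdh, Eno1 and Pgam1 in each library, stacked as counts of the gene itself (red) and of its near copies elsewhere (grey), GDF10 libraries left and vehicle libraries right. The Gapdh portion ranges from 555 to 930 CPM while its copies stay between 2897 and 3037 CPM.

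Among the paralogues examined here, 1 or 2 of each enzyme family made up nearly all of the level per length. Shares below are of the summed reads per kilobase of the named paralogues, as mean ± SD over 2 libraries per group. Other members of a family were not included. Hk1 took 55.4 ± 2.87% of hexokinase with GDF10 and 56.8 ± 1.32% with vehicle, the rest being Hk2. Eno1 took 65.0 ± 1.99% of enolase with GDF10 and 64.9 ± 2.20% with vehicle, and Eno3, the enolase of muscle, took 33.7 ± 1.98% with GDF10 and 33.6 ± 2.43% with vehicle, the near copies of Eno1 aside. Eno2, the enolase of neurons, took 1.34 ± 0.0190% with GDF10 and 1.51 ± 0.232% with vehicle. Merged exon lengths of 5379 bases for Eno1 and 1739 for Eno3 enter these shares. Before division by length, Eno1 stood at 1863 to 2034 CPM and Eno3 at 311 to 351 CPM, so the enolase shares are uncertain. Aldoa took 99.7% of aldolase with GDF10 and 99.6% with vehicle, the rest being Aldoc, the brain form, which had 120 and 140 counts with GDF10 against 147 and 162 with vehicle. Pgam1 took 99.5% of phosphoglycerate mutase in both groups. Pgam2, the mutase of mature muscle, had 2.17 and 2.35 CPM with GDF10 and 2.63 and 1.93 CPM with vehicle. Eno3 was present at 351 and 319 CPM with GDF10 and 335 and 311 CPM with vehicle. With 2 libraries against 2, an exact permutation test of a share could not reach 0.05, so none was run.

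At the end of the pathway, Ldha, the subunit of lactate dehydrogenase that favours lactate formation, had 1321 and 1243 CPM with GDF10 against 1249 and 1348 CPM with vehicle. The groups overlap, and the log2 fold change was −0.02 with a 95% interval of −0.19 to 0.16. Ldhb, the heart-type subunit, had 18.4 and 16.3 CPM with GDF10 against 15.6 and 14.7 CPM with vehicle. Both GDF10 libraries were above both vehicle libraries, but it was not called (log2 fold change 0.19, standard error 0.13, edgeR adjusted p = 0.845). Ldha made up 97.2 ± 0.117% of the level per length of Ldha and Ldhb together with GDF10 and 97.6 ± 0.221% with vehicle. Pdk1, the kinase that keeps pyruvate out of mitochondria by inhibiting pyruvate dehydrogenase, had 88.0 and 101 CPM with GDF10 against 97.0 and 121 CPM with vehicle. Vehicle replicate 2 was the highest of the 4 (log2 fold change −0.20, standard error 0.13).

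Of the 3 glucose carriers examined, 1 made up nearly all of the level. Slc2a1, which encodes GLUT1, the basal glucose transporter, had 319 and 342 CPM with GDF10 against 312 and 391 CPM with vehicle and took 99.9% of the level per length of the 3 in both groups. Slc2a3, the transporter GLUT3, had 8 and 10 counts with GDF10 and 4 and 6 with vehicle, and Slc2a4, the insulin-responsive GLUT4 of mature muscle, had 6 and 10 counts with GDF10 and 4 and 10 with vehicle. Both fell under the filter on low counts and were not tested. For lactate, Slc16a1, the carrier MCT1, had 218 and 217 CPM with GDF10 against 209 and 218 CPM with vehicle. Slc16a3, the carrier MCT4 of glycolytic muscle, had 6.04 and 5.59 CPM with GDF10 against 5.23 and 6.99 CPM with vehicle. It took 2.18 ± 0.109% of the level per length of Slc16a1 and Slc16a3 together with GDF10 and 2.32 ± 0.401% with vehicle. The log2 fold changes of Slc2a1, Slc16a1 and Slc16a3 were −0.09, 0.03 and −0.07.

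The oxygen-sensing genes were expressed at middling levels. Hif1a, the main oxygen-labile subunit, had 165 and 162 CPM with GDF10, against 166 and 191 CPM with vehicle. The GDF10 values lay below both vehicle values, but vehicle replicate 1 was close to them (log2 fold change −0.12, standard error 0.09, edgeR adjusted p = 0.845). Without vehicle replicate 2 it was −0.02. Epas1, which encodes HIF-2 alpha and is typical of endothelium, had 11 and 12 counts with GDF10 and 8 and 4 with vehicle. It passed the filter only through its GDF10 libraries, and its log2 fold change of 0.95 had a 95% interval of −0.50 to 2.39. Hif1a took 99.8% of the level per length of Hif1a and Epas1 together with GDF10 and 99.9% with vehicle. Egln1, the main prolyl hydroxylase in normal oxygen, had 143 and 142 CPM with GDF10 against 136 and 156 CPM with vehicle, and Egln3, itself a HIF target, had 112 and 111 CPM with GDF10 against 106 and 127 CPM with vehicle. Per length the pair was nearly equal, with Egln3 at 51.4 ± 0.122% of their sum with GDF10 and 51.8 ± 0.725% with vehicle.

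Car9 came closest to a change among the hypoxia-inducible genes. It encodes a cell-surface carbonic anhydrase that is among the most HIF-dependent genes. Its counts were 98 and 127 with GDF10 against 176 and 184 with vehicle, or 3.27 and 3.64 CPM with GDF10 against 4.93 and 6.22 CPM with vehicle. The groups do not overlap. It was not called (log2 fold change −0.69, standard error 0.20, edgeR unadjusted p = 0.0113, adjusted p = 0.791). The adjusted p was 0.235 or more in every alternative. With each library left out in turn the log2 fold change ran from −0.85 to −0.51. Car9 shares 214 exon bases with the gene model Gm12454, which held up to 69 counts in a library.

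As with Car9, both GDF10 libraries were below both vehicle libraries for P4ha1 and Kdm3a, given below. Adm, Ankrd37 and Vegfa showed no such separation. Adm, the vasodilator peptide adrenomedullin, had 2.87 and 4.85 CPM with GDF10 against 3.22 and 6.55 CPM with vehicle, with both libraries numbered 2 above both numbered 1 and a standard error of 0.45. Ankrd37, an ankyrin repeat gene induced by HIF, had 6.37 and 4.73 CPM with GDF10 against 4.79 and 5.17 CPM with vehicle. Vegfa, the vessel growth factor, had 226 and 237 CPM with GDF10 against 234 and 279 CPM with vehicle, a log2 fold change of −0.15 with a 95% interval of −0.38 to 0.08. Vehicle replicate 2 was highest for Adm and Vegfa, and GDF10 replicate 1 for Ankrd37. Ankrd37 shares exon bases with Ufsp2 and Lrp2bp, which held up to 781 counts in a library.

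The mitophagy receptors Bnip3 and Bnip3l stood at 57.3 and 36.3 RPKM on average. Bnip3 had 120 and 122 CPM with GDF10 against 119.7 and 157 CPM with vehicle, so that 3 libraries were level and vehicle replicate 2 stood apart. Its log2 fold change was −0.19, and 0.02 without vehicle replicate 2. Bnip3l had 131 and 152 CPM with GDF10 against 122 and 155 CPM with vehicle. Ndrg1, a stress-responsive gene that HIF induces, had 342 and 386 CPM with GDF10 against 323 and 451 CPM with vehicle, a log2 fold change of −0.09 that became 0.17 without vehicle replicate 2. Ddit4, the mTORC1 inhibitor REDD1, had 121 and 131 CPM with GDF10 against 115 and 132 CPM with vehicle.

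Of the collagen prolyl hydroxylase subunits, P4ha1 had 379 and 382 CPM with GDF10 against 392 and 429 CPM with vehicle, with no overlap but no call (log2 fold change −0.11, standard error 0.07, edgeR adjusted p = 0.845). P4ha2 had 142 and 152 CPM with GDF10 against 139 and 167 CPM with vehicle. Kdm3a, a histone H3 lysine demethylase, had 79.1 and 79.8 CPM with GDF10 against 84.7 and 82.1 CPM with vehicle, without overlap but with no call (log2 fold change −0.07, edgeR adjusted p = 0.882). Higd1a, a mitochondrial protein of the respiratory chain, had 41.9 and 34.8 CPM with GDF10 against 30.9 and 38.6 CPM with vehicle.

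Across the genes, the 2 vehicle libraries differed from each other. Vehicle replicate 2 was the highest of the 4 libraries for 25 of the 36 tested genes, where this held for 26.8% of all genes. It was above vehicle replicate 1 for 31 of the 36, among them 11 of the 12 hypoxia-inducible genes, and for 7742 of all 15467 genes. The median deviation from the mean of the 4 libraries over the 36 genes was −0.04 and −0.02 with GDF10 and −0.08 and 0.14 with vehicle on the log2 scale. For the 12 hypoxia-inducible genes it was −0.08 and −0.03 with GDF10 and −0.11 and 0.16 with vehicle, and over all genes it lay between 0.00063 and 0.0097. Within both groups replicate 2 was above replicate 1 for 9 of these 12, Vegfa, Bnip3, Bnip3l, Ndrg1, Ddit4, P4ha1, P4ha2, Adm and Car9, where this held for 27.9% of all genes. The labels give no batch, date or density for the cultures, and the part of these in the difference was not tested.

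**Figure D4:**
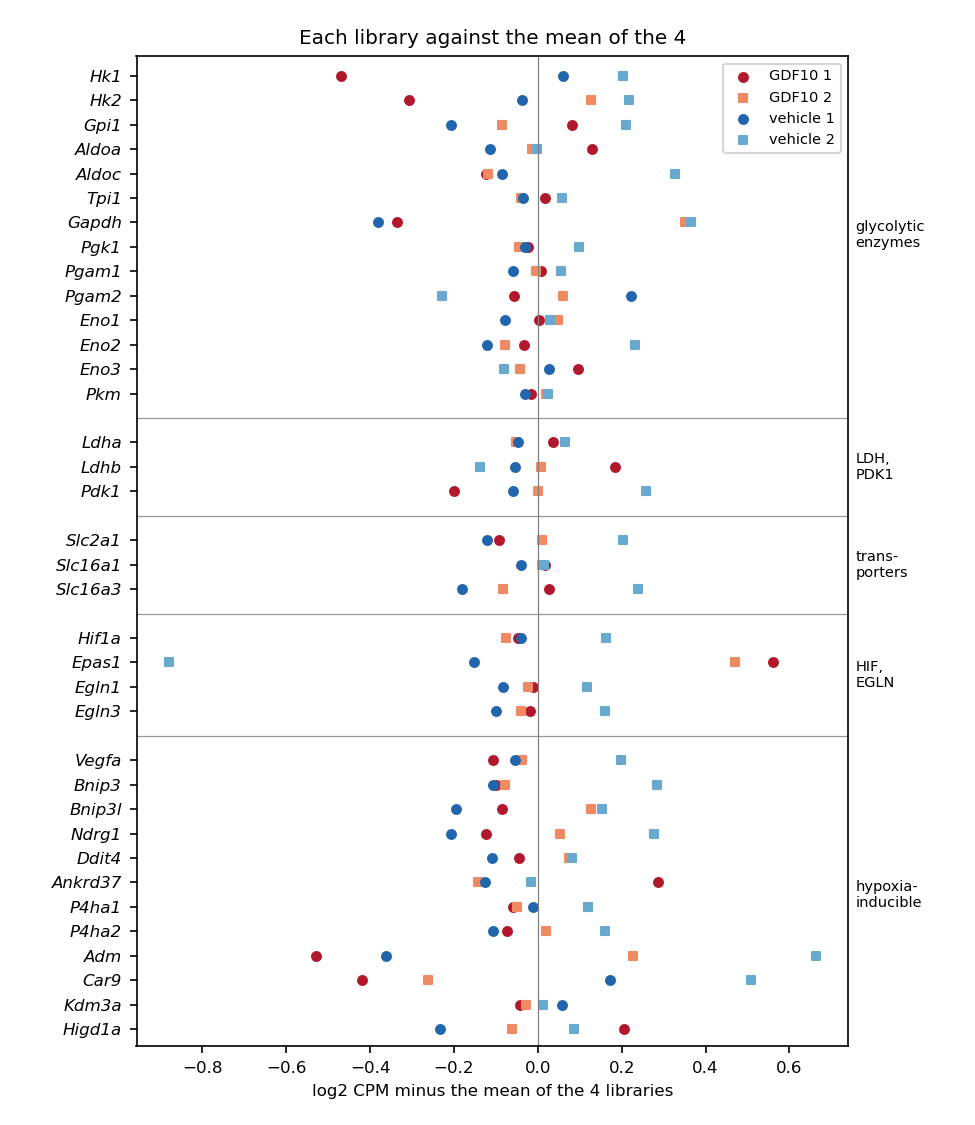
Log2 CPM of each library minus the mean of the 4 libraries (horizontal axis) for the 36 tested genes, grouped by role, with circles for replicate 1 and squares for replicate 2. Vehicle replicate 2 (light blue squares) lies highest for 25 of the 36 genes, and Gapdh splits into a pair of replicate 1 points and a pair of replicate 2 points.

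The direction of the medians turned with single libraries. The median log2 fold change of the 36 genes was −0.05 with all 4 libraries, −0.15 without vehicle replicate 1 and 0.06 without vehicle replicate 2. With a GDF10 library left out it was −0.03 and −0.07. For the hypoxia-inducible genes the median was −0.08 with all 4 libraries, −0.18 without vehicle replicate 1 and 0.10 without vehicle replicate 2. For the 14 glycolytic enzymes it was −0.02, with −0.10 without vehicle replicate 1 and 0.03 without vehicle replicate 2, and it was 0.0095 without GDF10 replicate 1 and −0.03 without GDF10 replicate 2. For the 3 genes Ldha, Ldhb and Pdk1 the median was −0.02 with all 4 libraries, −0.06 without GDF10 replicate 1, 0.03 without GDF10 replicate 2, −0.07 without vehicle replicate 1 and 0.04 without vehicle replicate 2. The number of the 36 genes with a positive log2 fold change was 13 with all 4 libraries, 6 without vehicle replicate 1 and 25 without vehicle replicate 2.

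**Figure D5:**
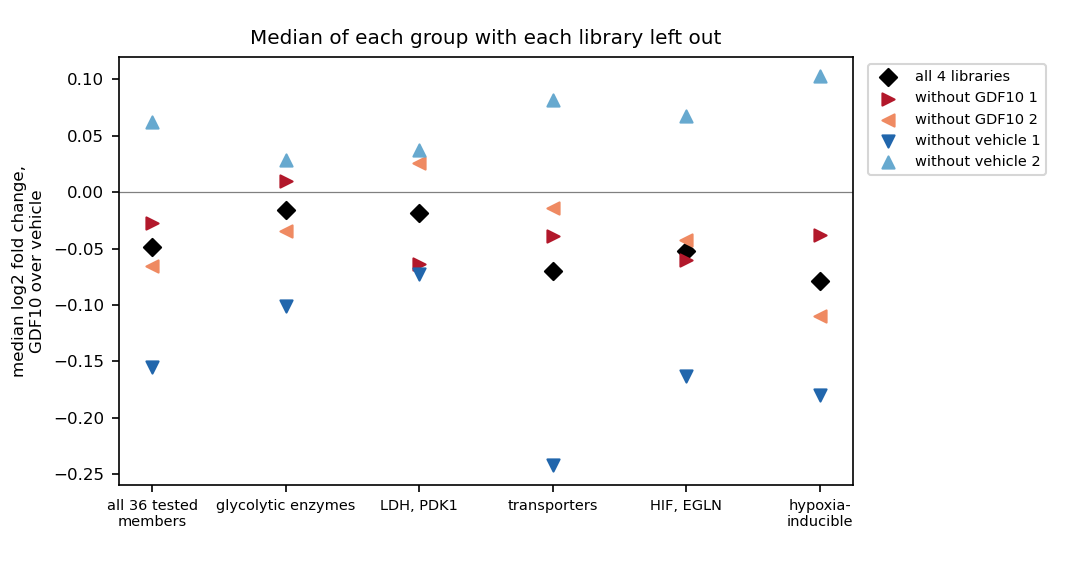
Median log2 fold change of GDF10 over vehicle (vertical axis) for the 36 tested genes and for each role, with all 4 libraries (black diamonds) and with each library left out (coloured triangles). Leaving out vehicle replicate 2 puts all 6 medians above 0, and leaving out vehicle replicate 1 puts all 6 below.

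The neighbouring parts of the pathway were read from 5 lists that hold 75 further genes, of which 72 were tested. Of these, 0 passed in edgeR over all genes, with 2 higher and 1 lower at an unadjusted p under 0.05, against 2.44% and 3.49% of all genes. The 3 were Pfkfb4, Gyg and Tfrc. Over all 72 genes the median log2 fold change was 0.02. By list it was −0.10 for 8 phosphofructokinases and their regulators and 0.08 for 14 tested genes of pyruvate fate. It was 0.05 for 15 of the glycogen and pentose phosphate branches, −0.07 for 11 partners of HIF and −0.04 for 26 other hypoxia-inducible genes. Vehicle replicate 2 was the highest library for 14 of those 26 but for only 2 of the 14 genes of pyruvate fate.

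Pfkfb4 stood closest to the threshold. It encodes a bifunctional enzyme that sets the level of fructose 2,6-bisphosphate, an activator of phosphofructokinase, and it is induced by hypoxia. It had 17.4 and 16.98 CPM with GDF10 against 9.04 and 8.51 CPM with vehicle, a difference of 0.97 on the log2 scale (standard error 0.13). Its groups are far apart relative to the spread within them, but the edgeR adjusted p of 0.0640 missed the threshold. It passed with DESeq2 at 0.00023, with upper quartile scaling at 0.0496, with the exon length trend removed at 0.0404 and without GDF10 replicate 2 at 0.0255. It did not pass with limma-voom at 0.0630, with non-robust dispersions at 0.155, nor without vehicle replicate 1 at 0.187, without vehicle replicate 2 at 0.233 or without GDF10 replicate 1 at 0.0589. In edgeR, Pfkfb4 also missed the threshold with DESeq2 size factors at 0.0689, total counts at 0.0618, no filter at 0.0665 and a CPM filter at 0.0639. With the replicate block it stood at 0.0879, and with near copies summed at 0.0635. Pfkfb2, another such bifunctional enzyme, had a log2 fold change of −0.26, and Pfkm, the muscle phosphofructokinase, of 0.16, with edgeR adjusted p of 0.825 and 0.829.

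The remaining genes of these lists were further from the threshold. Gyg, the primer protein of glycogen synthesis, had 58.8 and 48.4 CPM with GDF10 against 40.8 and 40.2 CPM with vehicle (log2 fold change 0.40, adjusted p = 0.748 in edgeR), and passed without GDF10 replicate 2 at 0.0413. Tkt and Pgd, of the pentose phosphate branch, had log2 fold changes of 0.12 and 0.09. Bsg, the chaperone of the lactate carriers, had 859 and 948 CPM with GDF10 against 781 and 829 CPM with vehicle, and was not called (log2 fold change 0.17, edgeR adjusted p = 0.825). Pdhb, a subunit of pyruvate dehydrogenase, and Pdk3, one of its kinases, had log2 fold changes of 0.15 and 0.16. Among partners of HIF, the ubiquitin ligase subunits Rbx1 and Elob had log2 fold changes of 0.14 and 0.17 and Ep300, a coactivator, −0.17. Tfrc, the transferrin receptor, had 186 and 209 CPM with GDF10 against 235 and 239 CPM with vehicle, and was not called (log2 fold change −0.26, edgeR adjusted p = 0.801), and the log2 fold change of Ccng2, a cyclin G gene, was −0.19.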

How the data were processed

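Whole-number gene counts, deposited by the authors without normalization, were used for 4 libraries. The submitters' processing notes list, with no roles, build mm10, DESeq2 1.12.4, StringTie 1.3.3b, HISAT2 2.0, Trimmomatic 0.36, FastQC 0.11.2 and bedtools 2.26.0. How reads were counted, whether by strand and on which annotation is not given in the sources used here. GENCODE release M21 supplied symbols, positions and merged exon lengths for 51633 of 51826 identifiers. Testing used edgeR 4.0.16 in R 4.3.3 (filterByExpr, TMM, robust glmQLFit, glmQLFTest, no covariates), with Benjamini-Hochberg adjustment over the 15467 genes tested and a threshold of 0.05. A standard error is the log2 fold change divided by the root of its F statistic. Near copies were found with blastn 2.17.0, and adding them to their gene was chosen after seeing the data. Since little is said of the cultures, p-values reflect the spread among these libraries, which may be technical, and counting floors cover counting error only. Alternatives were other scalings and filters, DESeq2 1.42.0, limma-voom (limma 3.58.1), non-robust dispersions, a block for replicate number, leaving out each library, an adjusted p of 0.1 and removal of the exon length trend (loess, span 0.3, prior count 2). The text names all 38 genes and the 3 of lowest p in each of 5 further lists. Genes and lists were chosen with earlier results of these data known.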

Additional observations from a re-analysis of the deposited data

How the results depend on the processing

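Over all genes 25 were called, against 56 with DESeq2, 9 with non-robust dispersions and 27 to 224 with a library left out (44 without vehicle replicate 2, 112 without GDF10 replicate 1, 224 without GDF10 replicate 2). Calls among the 36 genes stayed at 0 in every alternative except without GDF10 replicate 2, where Hk1 was called. Among the 72 further genes 0 were called, against 1, Pfkfb4, with upper quartile scaling, with DESeq2, with the exon length trend removed and at an adjusted p of 0.1, and 0 to 2 with a library left out. The median of the 36 genes ran from −0.155 to 0.0622 with a library left out. With the replicate number as a block 23 genes were called in all and 0 of the 36, and Car9 stood at −0.68. The labels do not say that a number marks a shared batch, and deviations from the group means of libraries with the same number correlated at 0.0696 across all genes. Whether they share a batch was not tested. Other settings turned the sign of 8 values near 0: Gpi1 to 0.0425, Pgam1 to −0.0186, Ddit4 to −0.00312 and Kdm3a to 0.0100 with the exon length trend removed, Pgam1 to −0.00315 and Pkm to −0.00029 with total counts, Pgam1 to −0.00123 with a CPM of at least 1 in 2 libraries, and Pgam2 to 0.00056 with the block. With each library left out in turn, the sign turned for 25 genes. Their log2 fold changes ran from −0.60 to 0.0705 for Hk1, from −0.40 to 0.0322 for Hk2, from −0.21 to 0.21 for Gpi1, from −0.0698 to 0.0251 for Tpi1, from −0.37 to 0.43 for Gapdh, from −0.054 to 0.0595 for Pgam1, from −0.22 to 0.23 for Pgam2, from −0.00425 to 0.10 for Eno1, from −0.29 to 0.0649 for Eno2, from −0.0162 to 0.12 for Eno3, from −0.0226 to 0.0324 for Pkm, from −0.0724 to 0.0375 for Ldha, from −0.24 to 0.0818 for Slc2a1, from −0.00175 to 0.0536 for Slc16a1, from −0.27 to 0.15 for Slc16a3, from −0.14 to 0.0658 for Egln1, from −0.19 to 0.0695 for Egln3, from −0.37 to 0.0186 for Bnip3, from −0.13 to 0.22 for Bnip3l, from −0.31 to 0.17 for Ndrg1, from −0.066 to 0.13 for Ddit4, from −0.072 to 0.36 for Ankrd37, from −0.19 to 0.0795 for P4ha2, from −0.76 to 0.27 for Adm and from −0.00875 to 0.31 for Higd1a. The cause was not tested. A design of 2 libraries per group limits these comparisons.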
